A study of Mus musculus with 18 samples.

Results

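The LPS response of macrophages was compared between Klf3 knockout (KO) and wild-type (WT) cells by an interaction contrast, the response to lipopolysaccharide (LPS) in KO cells minus that in WT cells. It rests on 12 of the 18 arrays of the series: 3 each of WT vehicle, WT LPS, KO vehicle and KO LPS, with LPS and vehicle samples taken at 8 h. All cells were bone marrow-derived macrophages of male FVB/NJ mice, flushed from the marrow at an age of 10 to 14 weeks. Cultures lasted 7 to 10 days, with 20% of the medium taken from L929 fibroblasts, which secrete the macrophage growth factor M-CSF. That medium was removed from every sample before treatment, so LPS (100 ng/mL) and vehicle (PBS) acted in plain medium. The other 6 arrays, WT and KO cells at 0 h, are outside the contrast but entered the fit, where they share the estimate of the spread. The sources used here do not give how Klf3 was deleted or whether replicates came from separate mice or cultures. The p-values therefore measure the spread between these samples, which may be technical.

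LPS, from the outer membrane of Gram-negative bacteria, is sensed by TLR4 and drives macrophages to transcribe cytokines, chemokines and interferon-stimulated genes, mainly through NF-kB, AP-1 and interferon regulatory factors. Many cytokine genes need another layer of newly made activators, or loss of repressors, and so differ in timing and size. KLF3 is a zinc finger factor of the Krüppel-like family that binds CACCC-type sequences and represses genes with the corepressor CtBP.

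Values are intensities of Affymetrix probe sets on a log2 scale after quantile normalization, with 1 probe set for each of 17097 genes. An interaction of 1 means that the ratio of LPS to vehicle was 2-fold higher in KO than in WT cells. Adjusted p-values come from limma with Benjamini-Hochberg adjustment over all 17097 genes, and a gene passed below 0.05. A nonspecific level, 3.71 to 4.54 by array, marks absent signal: 95% of the 23 nonspecific control probe sets lie under it. The probe set that stood for Klf3 separated the genotypes in these conditions. After vehicle Klf3 read 9.09, 8.30 and 8.98 in WT and 7.08, 7.45 and 6.08 in KO cells. After LPS it read 9.46, 8.84 and 9.07 against 7.04, 6.72 and 6.76. Its own interaction did not pass (-0.36 ± 0.41, log2 ± SE, adjusted p = 0.793).

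The arrays differed in ways that are shared by many genes. The upper quartile of the deposited intensities was 66.6 to 75.7 in WT LPS, 75.8 to 107 in KO LPS and 97.2 to 125 in the vehicle arrays. The arrays of the WT LPS group lay farthest from their group mean (SD over genes 0.277 to 0.336, elsewhere 0.165 to 0.266). The highest value elsewhere was that of KO vehicle array 3, which enters every KO response. The 5' minus 3' signal of Gapdh, a measure of RNA integrity, was -0.38 ± 0.29 in WT LPS and -0.44 ± 0.05 in KO LPS (SD, n = 3). The 7 macrophage markers lay above the nonspecific level in all 12 arrays. In the KO LPS arrays their summed intensity (15800 to 17300) was below that in the WT LPS arrays (20200 to 22900). After vehicle it was 20800 to 21900 in KO and 21100 to 21500 in WT arrays. For the 4 monocyte markers measured, the sums were 500 to 631 in KO LPS and 1210 to 1830 in WT LPS arrays. After vehicle they were 712 to 2350 in KO and 1840 to 2590 in WT arrays. The summed intensity of the 6 osteoclast markers measured leaned the other way after LPS, at 1360 to 1650 in KO and 869 to 1410 in WT arrays. Such a sum is set mostly by bright members, and the median interaction of these markers was -0.34. The sum of the 5 dendritic cell markers measured was 213 to 257 in KO LPS and 97.6 to 257 in WT LPS arrays. For both lists the ranges of the genotypes overlap. Of the 5 dendritic cell markers, 4 (Flt3, Zbtb46, Xcr1 and Cd209a) lay under the nonspecific level in all 12 arrays. Their list had a median interaction of -0.07. No member of the 11 cell type marker lists passed in the interaction. The 8 neutrophil markers measured summed to 559 to 898 in WT LPS and 535 to 707 in KO LPS arrays, and 4 of them (Mpo, Elane, S100a9 and Ltf) lay under the nonspecific level in all 12 arrays. The part of these differences in the results was not tested, and in bulk samples fewer cells of a type cannot be told apart from less RNA per cell.

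Of 17097 genes, 191 passed (1.12%). The response was larger in KO cells for 89 of them (0.521%) and smaller for 102 (0.597%). Larger and smaller refer here and below to the signed log2 response, not to its size. A deeper fall in KO cells thus counts as smaller, and a weaker fall as larger. This split depends on the scaling of the arrays, since the median interaction of all genes was -0.02 after quantile normalization but 0.44 with the deposited values. Deposited values gave 278 higher and 16 lower genes. Arrays shifted to the same median gave 144 and 42, at a median of 0.17. Scaling by the hybridisation controls gave 142 and 13, at a median of 0.50. Values below are relative to the centre that quantile normalization sets, and none of the genes past the threshold that are named below changed sign under these 3 scalings. List medians near 0, and values of single genes near 0, move with this shift. An unadjusted p under 0.05 in limma was reached by 2077 of 17097 genes (12.1%) in the interaction, the background for such counts in the lists below.

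LPS changed 32.3% of all genes in WT and 34.5% in KO cells (adjusted p under 0.05), the background for each response below. Among the 89 genes with a larger response the median change was 0.32 in WT and 2.05 in KO cells. KO LPS was the group with the highest mean for 76 of them (85.4%, against 25.6% of all genes). All 3 KO LPS arrays lay above all 3 WT LPS arrays for 87 of the 89, a pattern that 8.36% of all genes showed. The 89 genes were chosen by a contrast of these same arrays, so both shares largely follow from that choice and are no separate evidence. The median KO minus WT difference of these genes was -0.08 after vehicle and -0.03 at 0 h. Among the 102 genes with a smaller response the median change was 0.35 in WT and -0.81 in KO cells. For 100 of these, all KO LPS arrays lay below all WT LPS arrays (10.1% of all genes), which again largely follows from the choice. Their median KO minus WT difference was 0.08 after vehicle. All KO vehicle arrays lay below all WT vehicle arrays for 13 of the 89 genes (960 of all 17097). They lay above them for 20 of the 102 (1098 of all 17097). Between the genotypes after vehicle, limma called 0 of 17097 genes, and 777 had an unadjusted p under 0.05 (4.54%). Klf3 itself missed the threshold there (-1.92 ± 0.29, adjusted p = 0.053), so 0 calls do not show equal baselines.

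**Figure D1:**
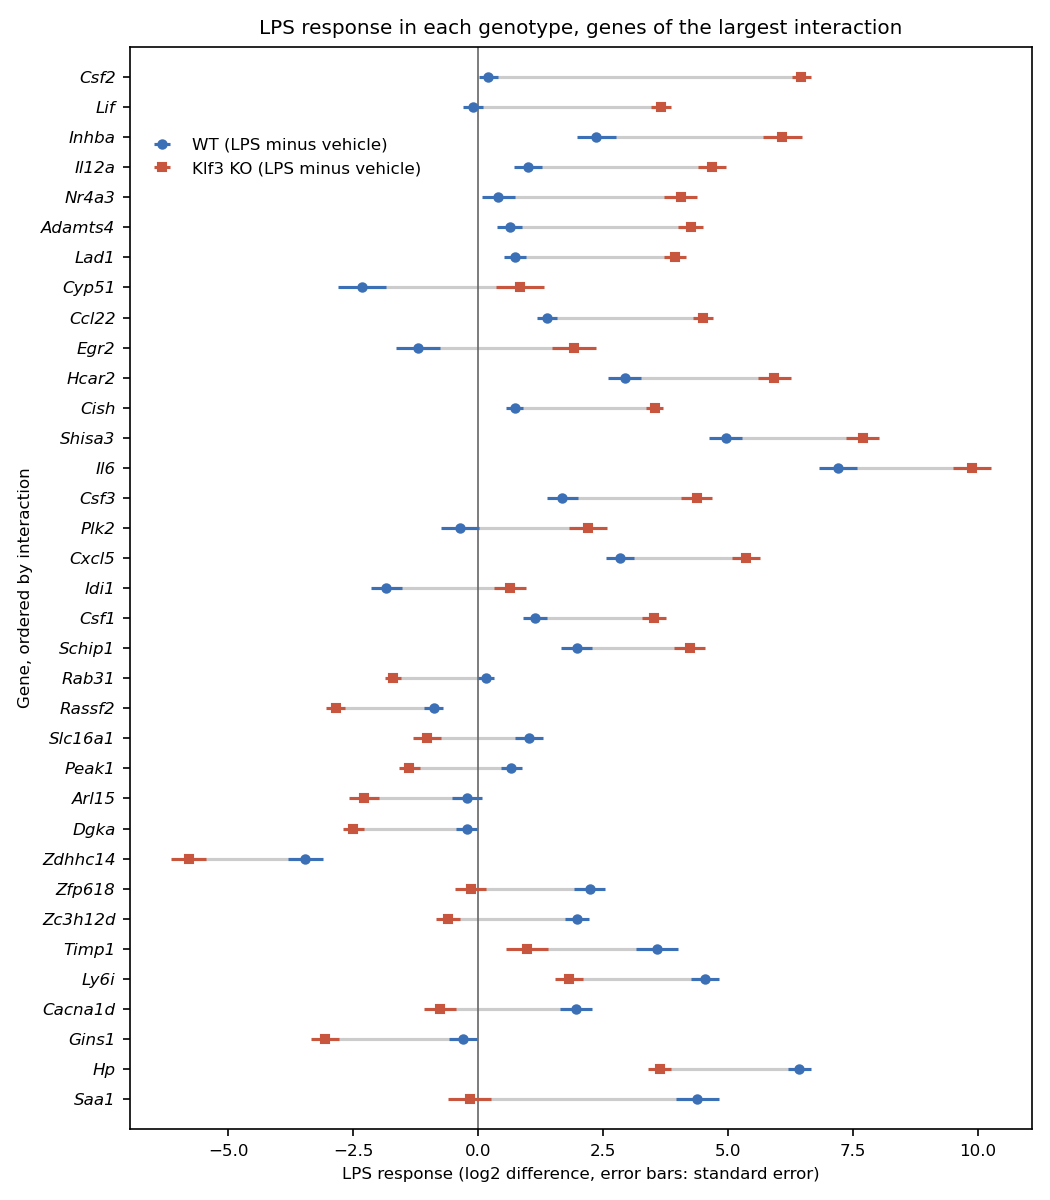
LPS response (LPS minus vehicle, log2, with standard errors, 3 arrays per group) of the 35 genes with the largest interaction, WT as blue circles and KO as red squares, ordered by interaction on the vertical axis. Csf2 at the top responded by 0.21 in WT and 6.47 in KO cells, and Saa1 at the bottom by 4.39 and -0.16.

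Promoter sequences are shown for 4 examples, because KLF3 and NF-kB are known for particular sequence motifs. They are Csf2 and Saa1, with the most positive and the most negative interaction, Cyp51, with the highest value among sterol genes, and the cytokine gene Il6, a known NF-kB target. Each is the 250 bases before the annotated start, 5' to 3' on the gene's strand, from RefSeq on GRCm38.p6, the C57BL/6J reference, whereas these mice were FVB/NJ. Capitals mark CACCC, the NF-kB consensus and TGANTCA (an AP-1 motif), searched on both strands. The windows are chr11:54249900-54250149 on the minus strand for Csf2 and chr5:30012864-30013113 on the plus strand for Il6. Those for Cyp51 and Saa1, on minus strands, are chr5:4104698-4104947 and chr7:46742981-46743230.
Csf2: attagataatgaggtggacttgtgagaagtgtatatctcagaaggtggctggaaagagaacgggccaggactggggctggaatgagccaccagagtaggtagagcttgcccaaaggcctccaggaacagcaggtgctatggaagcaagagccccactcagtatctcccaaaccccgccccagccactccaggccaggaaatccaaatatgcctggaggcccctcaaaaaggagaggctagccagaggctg
Il6: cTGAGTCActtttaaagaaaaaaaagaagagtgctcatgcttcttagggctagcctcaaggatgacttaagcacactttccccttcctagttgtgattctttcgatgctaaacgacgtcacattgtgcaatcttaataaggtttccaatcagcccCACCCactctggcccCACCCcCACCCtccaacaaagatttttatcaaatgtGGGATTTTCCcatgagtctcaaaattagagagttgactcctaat
Cyp51: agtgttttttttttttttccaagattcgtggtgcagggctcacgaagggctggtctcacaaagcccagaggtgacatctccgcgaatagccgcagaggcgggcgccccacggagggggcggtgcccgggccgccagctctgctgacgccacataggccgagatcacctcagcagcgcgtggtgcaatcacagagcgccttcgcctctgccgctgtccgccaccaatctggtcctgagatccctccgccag
Saa1: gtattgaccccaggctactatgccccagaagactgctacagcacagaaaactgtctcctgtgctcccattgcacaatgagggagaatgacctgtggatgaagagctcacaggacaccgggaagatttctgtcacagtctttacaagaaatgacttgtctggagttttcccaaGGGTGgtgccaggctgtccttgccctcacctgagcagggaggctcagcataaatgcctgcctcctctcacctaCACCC

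The Il6 window held CACCC at 3 places (95, 80 and 74 bases before the start), an NF-kB consensus at 44 to 35 bases and TGANTCA at 249 bases. Saa1 held CACCC on the minus strand at 78 bases and on the plus strand at 5 bases. The windows of Csf2 and Cyp51 held none of the 3 motifs. Over 13514 genes with a window, 57% held CACCC. It was present in 35 of 67 genes with a larger response (52.2%) and in 54 of 84 with a smaller one (64.3%). The NF-kB consensus was in 8.38% of all windows, 11.9% of those of genes with a larger and 13.1% of those with a smaller response. TGANTCA was in 5.62%, 10.4% and 4.76%. A match of letters is a description of the window, and no match says only that these letters are not in it.

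The colony-stimulating factor genes held the largest interaction of all. Csf2 encodes GM-CSF, a growth factor that pushes macrophages toward inflammatory and dendritic functions. Csf2 read 3.33, 2.72 and 3.16 in the WT LPS arrays and 8.91, 9.73 and 9.10 in the KO LPS arrays. The 12 arrays without LPS lay between 2.69 and 3.14. Every array but the 3 KO LPS arrays was under the nonspecific level, so KO cells read at least 34.3-fold higher after LPS. The interaction was 6.26 ± 0.27 (adjusted p = 1.75e-09), or 5.10 with values raised to that level.

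Csf3, which encodes the granulocyte growth factor G-CSF, rose in both genotypes. It read 5.17, 4.33 and 6.26 in WT LPS and 7.88, 7.48 and 7.98 in KO LPS, with no overlap. Its responses were 1.69 and 4.38, an interaction of 2.69 ± 0.44 (adjusted p = 0.00506). Csf1, the gene of M-CSF itself, read 6.64, 5.75 and 6.55 against 7.96, 8.81 and 8.61, again without overlap. It responded by 1.14 and 3.52 (interaction 2.37 ± 0.34, adjusted p = 0.00201). Of the other Csf1 probe sets, all dimmer, 1 read 2.71 and the others -0.15 and -0.61. With the mean of all its probe sets Csf1 read 1.08 and missed the threshold (adjusted p = 0.0902). None of the receptor genes passed: the interaction was -0.34 for Csf1r, 0.06 for Csf2rb and -1.03 for Csf3r. The list thus had 3 of 9 measured members higher and 0 lower, with a median of -0.03 (0.38 with equal hybridisation controls). Without KO replicate 3 (all 3 arrays of that number), Csf3 missed the threshold (adjusted p = 0.0597).

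Among pro-inflammatory cytokines, 6 of 17 measured genes had a larger response in KO cells and 0 a smaller one, at a median interaction of 1.12. Il6, the inducer of the acute-phase response, whose window above held all 3 motifs (as did that of Lif, not shown), read 9.71, 8.17 and 10.52 in WT LPS and 12.39, 12.48 and 12.53 in KO LPS. All 6 arrays were far above the vehicle arrays (1.96 to 2.94), and the WT arrays spread over a wider range. Il6 rose in both genotypes, by 7.20 and 9.89 (interaction 2.69 ± 0.53, adjusted p = 0.0182). Tnf, the early inflammatory cytokine, read 10.77, 9.60 and 10.66 against 11.75, 12.29 and 12.27. Its interaction was 2.29 ± 0.45 (adjusted p = 0.0169). Il18, a caspase-activated cytokine of the IL-1 family, had an interaction of 1.35 ± 0.23 (adjusted p = 0.00675).

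Among the subunit genes of the IL-12 family, Il12a and Il23a had little or no signal in WT cells, whereas Il12b had a high one. Il12a, the p35 subunit of IL-12, read 2.57, 3.03 and 4.02 in WT LPS and 6.58, 7.23 and 7.26 in KO LPS. Its interaction was 3.68 ± 0.39 (adjusted p = 0.000153). Il23a, the p19 subunit of IL-23, read 2.85, 2.13 and 2.84 against 5.19, 6.61 and 6.90. With every WT array under the nonspecific level, KO cells read at least 4.26-fold higher (interaction 3.82 ± 0.46, adjusted p = 0.000466). Il12b, the p40 subunit that both cytokines share, did not pass (1.64), with 9.73, 8.07 and 9.61 in WT and 11.06, 10.75 and 11.11 in KO cells.

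Lif, a cytokine of the IL-6 family, read 3.07, 3.11 and 2.73 in WT LPS and 6.76, 6.85 and 6.96 in KO LPS. The WT values were close to those of the arrays without LPS (2.91 to 3.56), all under the nonspecific level, and KO cells read at least 6.54-fold higher. Its interaction was 3.76 ± 0.28 (adjusted p = 4.25e-06). Il1a and Il1b, the strongly induced IL-1 genes, did not pass (1.73 and 0.76). For Il1b the LPS arrays read 12.35, 12.02 and 12.50 in WT and 12.92, 13.04 and 12.98 in KO cells. Leaving out WT replicate 1 or any KO replicate ended the call for Il6 (highest adjusted p = 0.148), and leaving out KO replicate 1 or 2 ended that for Tnf (at most 0.16 over all alternatives). The calls for Il12a, Il23a, Lif and Il18 held under all 27 alternatives.

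**Figure D2:**
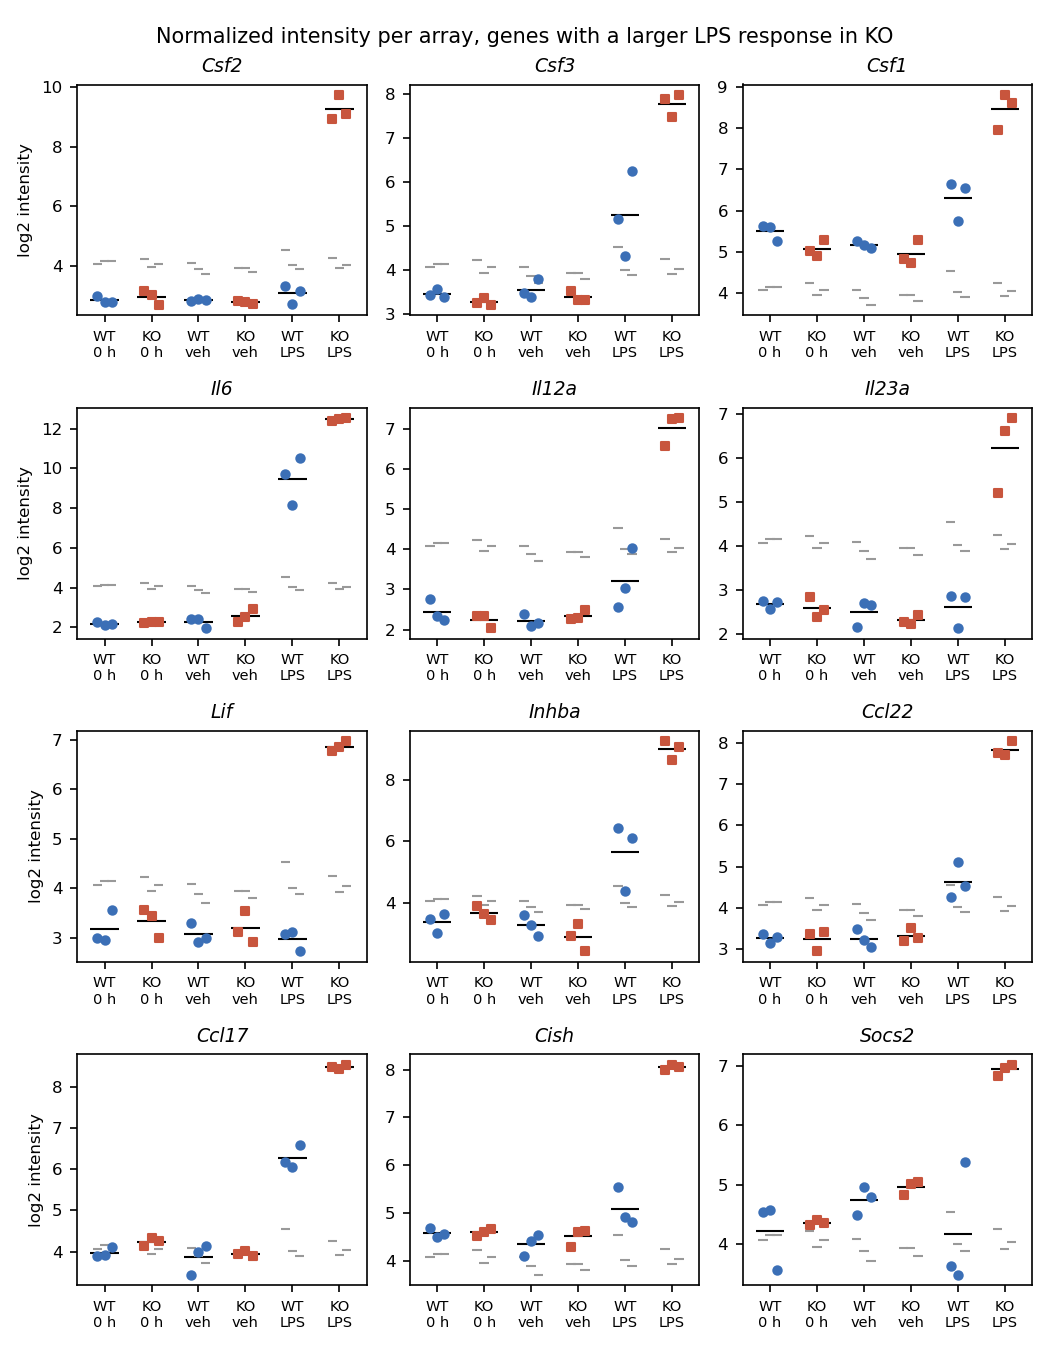
Normalized log2 intensity of 12 genes with a larger LPS response in KO cells, 1 point per array (WT blue circles, KO red squares), for 0 h, vehicle (veh) and LPS. Black bars are group means and short grey bars the nonspecific level of each array; in each panel the 3 KO LPS points lie above the 3 WT LPS points.

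Chemokines of macrophages moved in part. Of 22 measured genes 5 had a larger response in KO cells and 0 a smaller one (median 0.80). Ccl22, a ligand of CCR4 that attracts regulatory and Th2 cells, read 4.25, 5.12 and 4.52 in WT LPS and 7.77, 7.70 and 8.04 in KO LPS. Ccl17, the other CCR4 ligand, read 6.19, 6.07 and 6.60 against 8.49, 8.44 and 8.55. Neither pair of groups overlapped, and the replicates of each KO group lay close together. The interactions were 3.13 ± 0.28 for Ccl22 (adjusted p = 2.6e-05) and 2.12 ± 0.23 for Ccl17 (adjusted p = 0.000196). The neutrophil attractant gene Cxcl5 (2.52 ± 0.39, adjusted p = 0.00355) and Cx3cl1, the fractalkine gene (2.18 ± 0.29, adjusted p = 0.00112), passed as well. A dimmer Cx3cl1 probe set read 0.92 and did not pass.

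Ccl4, a macrophage inflammatory protein gene, passed (1.39 ± 0.30, adjusted p = 0.0346), but not without WT replicate 2 or 3 or any KO replicate (adjusted p up to 0.172). Its neighbour in function Ccl3 did not pass, with an interaction of 2.70 and an adjusted p of 0.138. For Ccl3, KO vehicle array 3 read 6.60 where the other KO vehicle arrays read 9.50 and 9.65. The interferon-driven chemokine genes gave mixed values that did not pass, 1.05 for Cxcl10, -0.41 for Cxcl11 and -0.76 for Cxcl9. Ccl5, a T cell attractant gene, read 12.89 to 13.04 in WT and 12.78 to 13.02 in KO cells after LPS, and these ranges overlap.

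GM-CSF signals through JAK2 and STAT5, and 5 of the 10 measured STAT5 readouts had a larger response in KO cells, with 0 smaller (median 0.93). Of these 5, Ccl17 and Ccl22 are counted among the chemokines too. Cish, a STAT5-induced feedback inhibitor, read 5.54, 4.91 and 4.81 in WT LPS and 8.00, 8.10 and 8.05 in KO LPS. It rose by 0.74 and 3.54 (interaction 2.80 ± 0.24, adjusted p = 1.69e-05). Socs2, another such inhibitor, read 3.63, 3.49 and 5.38 against 6.83, 6.97 and 7.02, without overlap. It rose by 1.98 in KO cells, while the WT value of -0.58 did not pass (adjusted p = 0.271), and the interaction was 2.56 ± 0.52 (adjusted p = 0.0212). Cdkn1a, the p21 cell cycle inhibitor gene, passed at 0.86 ± 0.18 (adjusted p = 0.0212). Leaving out any replicate but WT replicate 3 ended the call for Socs2 (highest adjusted p = 0.161), and any but KO replicate 1 that for Cdkn1a (at most 0.22 over all alternatives).

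Among 17 measured feedback inhibitors of inflammation, Cish was the 1 that passed (median 0.19). Values that did not pass were 1.51 for Socs1, -0.57 for Socs3, 0.43 for Tnfaip3 and -0.66 for Il10. Of 12 NF-kB subunits and inhibitors, 1 passed: Nfkbiz, which encodes the IkB-zeta coactivator of secondary response genes. It read 9.27, 9.03 and 9.33 in WT LPS and 10.19, 10.15 and 10.02 in KO LPS (interaction 1.39 ± 0.29, adjusted p = 0.028), a call lost when any replicate but KO replicate 3 was left out. Rela and Relb stood at 0.06 and 0.00.

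Of 15 EGR, NR4A and other immediate early genes, 3 had a larger and 1 a smaller response (median 0.43). Nr4a3, an orphan nuclear receptor gene, read 3.34, 2.55 and 2.80 in WT LPS and 5.74, 7.16 and 7.33 in KO LPS. The WT arrays were all under the nonspecific level, and KO cells read at least 6.04-fold higher (interaction 3.65 ± 0.47, adjusted p = 0.000917). Other Nr4a3 probe sets, above the nonspecific level in 0 arrays, read -0.02 and 0.63 and did not pass. Over the 27 alternatives the value for Nr4a3 was 1.42 to 4.22. The related gene Nr4a2 had an interaction of 1.38 ± 0.20 (adjusted p = 0.00229). The other 4 Nr4a2 probe sets read -0.26 to 0.83 and did not pass, and the mean of all gave 0.52 (adjusted p = 0.183). Egr2, a zinc finger factor of macrophage activation, read 4.49, 3.71 and 5.44 against 5.99, 6.91 and 6.83. It rose by 1.93 in KO cells, against -1.19 in WT cells (adjusted p = 0.0501), for an interaction of 3.13 ± 0.63 (adjusted p = 0.0194). Without WT replicate 1 or 2 or KO replicate 2 or 3 the call for Egr2 was lost (highest adjusted p = 0.143). It was also lost with 0 h in place of vehicle. KO minus WT for Egr2 was -1.10 after vehicle and 2.03 after LPS. Klf10, a TGF-beta inducible Krüppel-like factor, had the smaller response: 0.20 in WT (adjusted p = 0.603) and a fall by 1.56 in KO cells. Its interaction was -1.76 ± 0.35 (adjusted p = 0.0182), a call lost without WT replicate 2 or KO replicate 2 or 3.

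Single members of further lists were among the largest values. Inhba, which encodes the subunit of activin A, read 6.42, 4.41 and 6.11 in WT LPS and 9.24, 8.65 and 9.06 in KO LPS. Its interaction was 3.72 ± 0.55 (adjusted p = 0.00231), the 1 call among 19 measured activin and TGF-beta genes. A dimmer Inhba probe set, under the nonspecific level in every array, read 0.18. The aggrecanase gene Adamts4 read 3.79, 3.06 and 3.29 against 6.55, 7.53 and 7.51 (interaction 3.62 ± 0.35, adjusted p = 5.15e-05), at least 8.29-fold higher in KO cells. Hcar2, a receptor for nicotinic acid and ketone bodies, read 9.10, 7.82 and 9.28 against 10.69, 10.51 and 10.83 (2.99 ± 0.47, adjusted p = 0.00371). KO minus WT for Hcar2 was -1.05 after vehicle and 1.94 after LPS, so lower KO vehicle values are part of its interaction. Slc7a11, the cystine transporter gene controlled by NRF2, passed at 1.99 ± 0.37 (adjusted p = 0.0127) and was the 1 call of 17 NRF2 targets. Without WT replicate 1 or any KO replicate it did not pass. Plk2, a stress-induced kinase gene, passed at 2.56 ± 0.54 (adjusted p = 0.028), although 9.48 in WT LPS array 1 exceeded the lowest KO LPS array (9.41). Leaving out any replicate but WT replicate 1 ended that call, as did 0 h in place of vehicle. For Plk2 too KO minus WT was negative after vehicle (-0.99), against 1.58 after LPS. Lad1, the ladinin gene of epithelial basement membranes, passed at 3.20 ± 0.31 (adjusted p = 5.15e-05), with 4.43, 3.78 and 4.75 against 6.88, 7.71 and 7.54. Shisa3, a Wnt and FGF signalling inhibitor gene, rose by 4.96 and 7.70 (interaction 2.74 ± 0.46), a call lost without WT replicate 2 or KO replicate 2 (highest adjusted p = 0.0638). Schip1 passed at 2.26 ± 0.44 (adjusted p = 0.0163), but only WT replicate 3 could be left out with the call kept.

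Sterol synthesis turns acetyl-CoA into cholesterol, and its enzymes are switched on together by SREBP2 when cell sterols are low. Here 6 of 19 measured genes had a positive interaction past the threshold and 0 a negative one, with a median of 1.29 beside -0.02 for all genes. The median response of the 19 was -1.10 in WT and 0.33 in KO cells. Cyp51, the lanosterol demethylase gene, whose promoter window held none of the 3 motifs, read 5.81, 3.52 and 5.95 in WT LPS and 7.83, 8.91 and 8.55 in KO LPS. The vehicle arrays (7.07 to 8.34) lay above the WT LPS arrays and overlapped the KO LPS arrays. Cyp51 fell by 2.32 in WT cells and read 0.85 above vehicle in KO cells (adjusted p = 0.205), an interaction of 3.16 ± 0.68 (adjusted p = 0.0313).

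Idi1, the isopentenyl diphosphate isomerase gene, read 6.30, 5.38 and 7.12 against 8.45, 9.12 and 8.81 (interaction 2.47 ± 0.46, adjusted p = 0.0119). Fdft1, which encodes squalene synthase, read 6.37, 6.46 and 7.17 against 8.16, 8.88 and 8.46 (1.82 ± 0.40, adjusted p = 0.0358). Both fell in WT cells, by 1.83 and 1.17, and neither change in KO cells passed (0.64 for each). Msmo1, a methylsterol oxidase gene, fell by 1.94 in WT cells and stood at -0.22 in KO cells (interaction 1.72 ± 0.31, adjusted p = 0.00968). Srebf2, which encodes SREBP2 itself, and Insig1, the sterol-sensing retention factor that is also an SREBP target, had interactions of 1.55 ± 0.30 and 2.28 ± 0.43 (adjusted p = 0.0169 and 0.0128). Each of these 6 genes fell in WT cells, and none passed in KO cells.

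Other enzymes of the pathway had positive values that did not pass. They were 1.86 for Fdps, the farnesyl diphosphate synthase gene (adjusted p = 0.0653), 1.68 for the squalene epoxidase gene Sqle, 1.49 for Hmgcs1 and 1.18 for Mvd. Further enzymes read 1.29 (Sc5d), 0.94 (Nsdhl) and 0.92 (Lss). Values close to 0 were read for Dhcr7 and Ebp, which fell in both genotypes. Dhcr7, which makes the last step to cholesterol, responded by -2.11 in WT and -2.21 in KO cells, and Ebp, the sterol isomerase gene, by -1.06 and -1.04. Neither the 11 LXR and cholesterol efflux genes nor the 15 fatty acid synthesis genes had a member past the threshold (0 of each, with 3 and 2 at an unadjusted p under 0.05 in limma).

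The count of sterol genes past the threshold depended on single replicates. It was 6 with all arrays, 1 without KO replicate 1, 0 without KO replicate 2, 4 without KO replicate 3, and 2 without WT replicate 1 or WT replicate 2. It was also 0 when only the 12 vehicle and LPS arrays were fitted. KO vehicle array 3 read above the other KO vehicle arrays for Cyp51 (8.34 against 7.24 and 7.18) and Sqle (9.11 against 8.14 and 7.97), and without it the count was 9. The median of the list stayed between 0.99 and 1.79 over 27 alternatives.

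**Figure D3:**
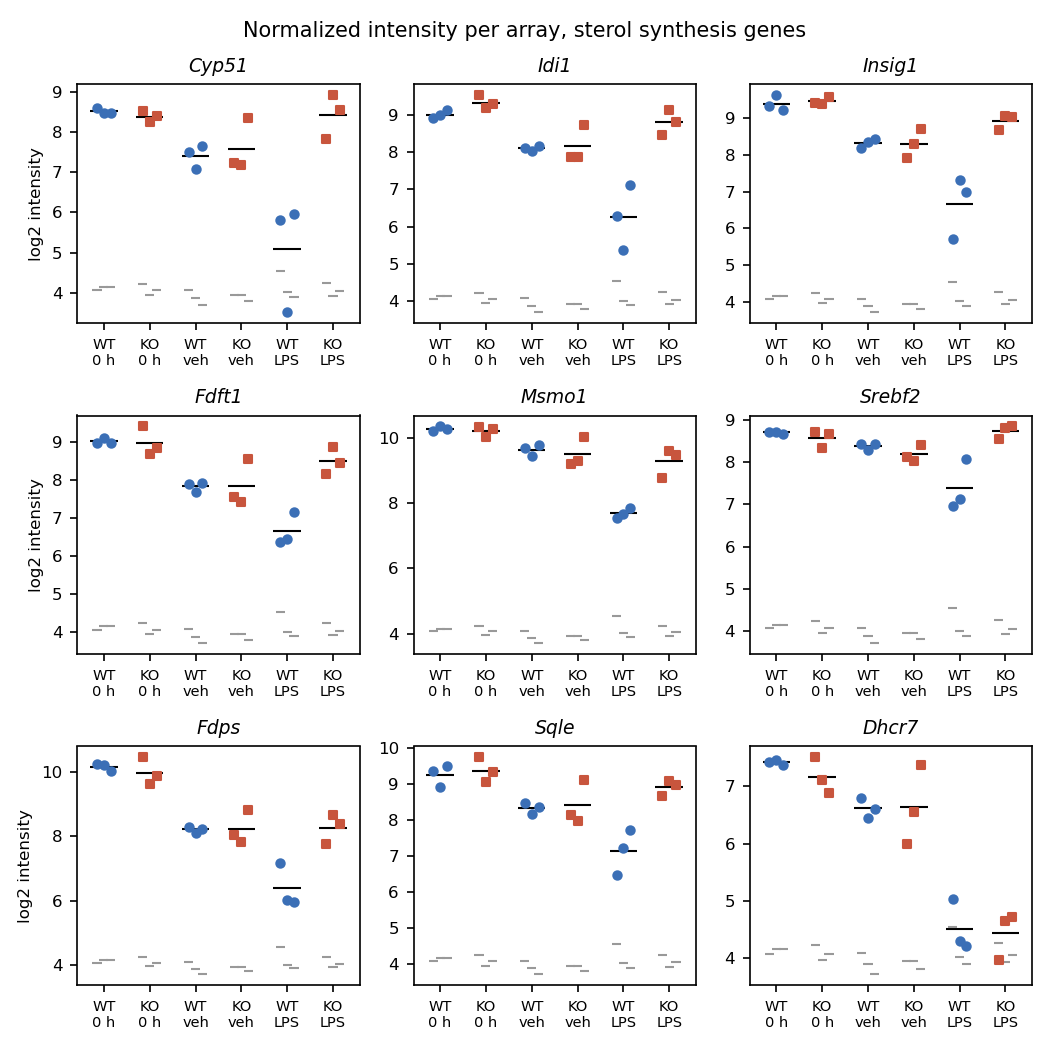
Normalized log2 intensity per array of 9 sterol synthesis genes (WT blue circles, KO red squares; black bars are group means, short grey bars the nonspecific level). For Cyp51 the WT LPS points (3.52 to 5.95) lie below the vehicle points and the KO LPS points (7.83 to 8.91); for Dhcr7 the LPS points of both genotypes lie low and overlap.

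Acute-phase proteins are secreted by liver, and in part by macrophages, after IL-6 and IL-1 signals, and help to bind hemoglobin, iron and lipids during infection. Here 0 of 12 measured genes had a larger response in KO cells and 2 a smaller one, at a median of -0.70. That median stayed negative under every alternative (-1.09 to -0.28). Saa1, serum amyloid A, with CACCC at both places given above, read 7.71, 7.39 and 5.23 in WT LPS and 2.69, 2.29 and 1.89 in KO LPS. The KO arrays were all under the nonspecific level, as were the arrays without LPS, and KO cells read at least 6.53-fold lower. The interaction was -4.56 ± 0.61 (adjusted p = 0.00112), or -2.71 with values raised to that level.

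Hp, which encodes the hemoglobin-binding haptoglobin, read 11.36, 12.09 and 12.02 in WT LPS and 9.27, 8.66 and 8.84 in KO LPS. It rose in both genotypes, by 6.43 and 3.64 (interaction -2.79 ± 0.33, adjusted p = 0.00042), and the KO values were 7.47-fold lower. Saa2 read 7.01, 6.72 and 3.89 against 3.14, 3.23 and 3.16 and did not pass (-2.62, adjusted p = 0.125); the 2 genes are near-identical copies, so their probe sets may share signal. Lcn2, the siderophore-binding lipocalin gene, had a value of -1.09 and Saa3 of -0.44, and neither passed. Complement genes gave a median of -0.60 with 0 of 14 past the threshold (7 at an unadjusted p under 0.05 in limma). Up to 2 of them were lower in the 27 alternatives.

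Several other genes that LPS raised in WT cells rose less, or did not pass, in KO cells. Ly6i, a Ly6 surface protein gene, read 8.24, 8.15 and 7.88 in WT LPS and 6.44, 5.61 and 5.79 in KO LPS (interaction -2.70 ± 0.40, adjusted p = 0.00229). Timp1, the tissue inhibitor of metalloproteases, read 7.67, 10.11 and 8.48 against 6.32, 5.76 and 5.37. It rose by 3.58 in WT cells and stood at 0.99 in KO cells (adjusted p = 0.0848), for an interaction of -2.59 ± 0.60 (adjusted p = 0.0482). When any replicate but WT replicate 1 was left out it did not pass (highest adjusted p = 0.227). Cacna1d, a calcium channel subunit gene, read 7.20, 8.66 and 7.52 against 4.84, 4.14 and 5.09 (-2.73 ± 0.46, adjusted p = 0.00589). Zc3h12d, a member of the Regnase family of RNA-degrading proteins, read 8.83, 8.67 and 8.00 against 6.96, 5.86 and 6.66 (-2.58 ± 0.34, adjusted p = 0.00112). For none of these 4 genes did the groups overlap after LPS. Zfp618, a zinc finger gene, rose by 2.24 in WT cells and stood at -0.14 in KO cells (-2.38 ± 0.43, adjusted p = 0.0107), a call lost without WT replicate 1 or 2 or KO replicate 3.

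**Figure D4:**
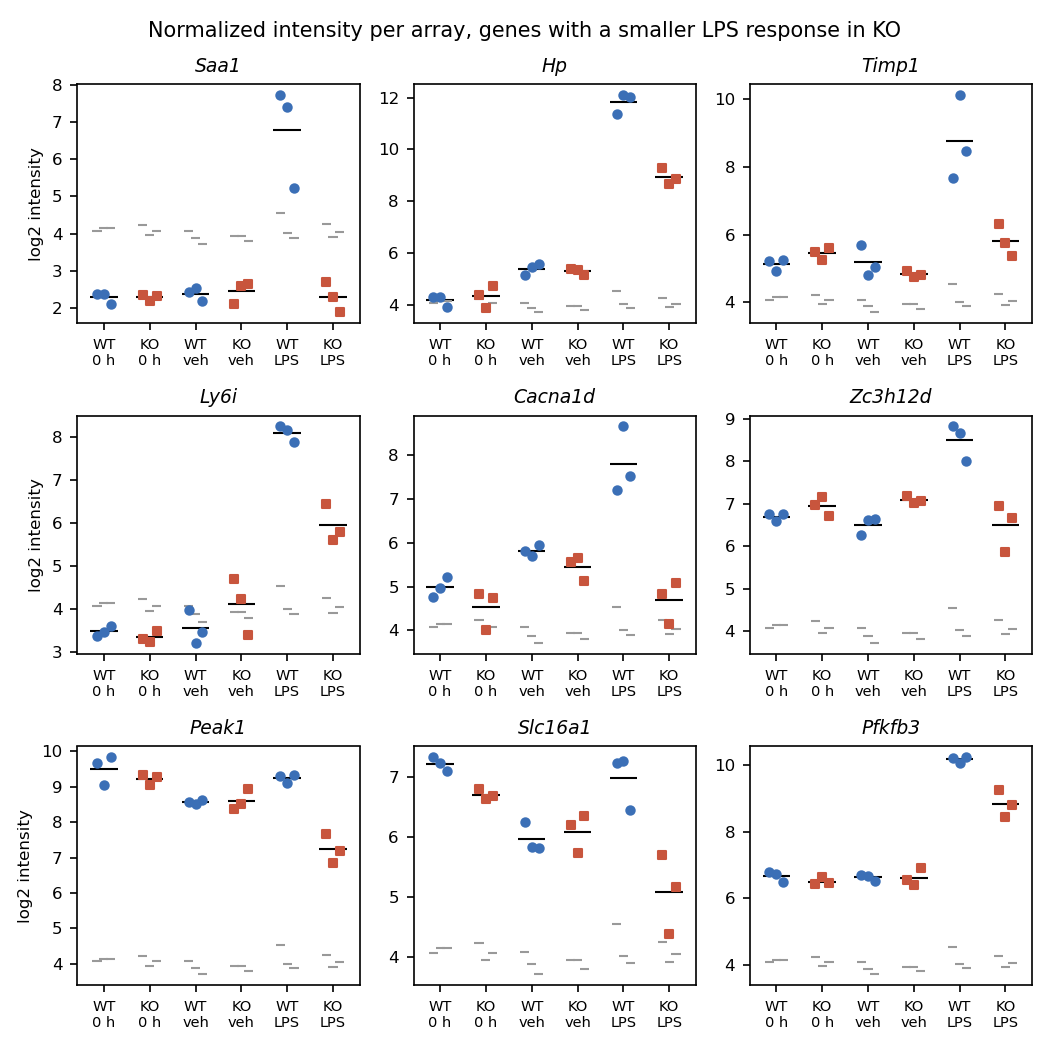
Normalized log2 intensity per array of 9 genes with a smaller LPS response in KO cells (WT blue circles, KO red squares; black bars are group means, short grey bars the nonspecific level). In each panel the 3 KO LPS points lie below the 3 WT LPS points; Saa1 in KO LPS arrays (1.89 to 2.69) lies within the range of arrays without LPS.

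For a further set of genes the LPS response was negative in KO cells. Peak1, a pseudokinase scaffold of the cytoskeleton, rose by 0.67 in WT cells and fell by 1.37 in KO cells. Its LPS arrays read 9.30, 9.11 and 9.33 in WT and 7.67, 6.86 and 7.19 in KO cells, for an interaction of -2.04 ± 0.30 (adjusted p = 0.00231). Slc16a1, the lactate and pyruvate transporter MCT1, rose by 1.02 and fell by 1.01, reading 7.23, 7.26 and 6.44 against 5.69, 4.38 and 5.16. Its interaction was -2.03 ± 0.39 (adjusted p = 0.0151). Dgka, a diacylglycerol kinase gene, did not pass in WT cells (-0.22) and fell by 2.50 in KO cells, to 5.48, 5.14 and 4.74 against 7.31, 7.40 and 6.75. Rab31, a Rab GTPase gene of endosomal traffic, likewise stood at 0.16 in WT cells and fell by 1.70 in KO cells (interaction -1.86 ± 0.23, adjusted p = 0.000545). Rassf2, a RAS association domain gene, fell in both genotypes, by 0.88 and 2.85, and so did the palmitoyltransferase gene Zdhhc14, by 3.46 and 5.79. Arl15, a small GTPase gene, stood at -0.22 in WT cells and fell by 2.28 in KO cells. The interactions of these 3 genes were -1.97, -2.33 and -2.06 (adjusted p = 0.00138, 0.0261 and 0.0224). Without WT replicate 1 or 2 or KO replicate 1 or 2 the call for Arl15 was lost, and when any replicate but WT replicate 1 was left out that for Zdhhc14.

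The calls for Peak1, Slc16a1, Dgka, Rab31, Rassf2, Arl15, Zdhhc14, Klf10, Pfkfb3, Cdt1, Nr4a2, Spry1, Icosl and Cdkn1a were lost under the scaling by hybridisation controls. Those for Zfp618, Zdhhc14, Arl15, Slc16a1, Klf10, Pfkfb3 and Cdt1 were lost with the deposited values. With arrays shifted to the same median, the calls for Arl15, Pfkfb3 and Cdt1 were lost as well. That for Slc16a1 was also lost without WT replicate 1 or 2 or KO replicate 3 (highest adjusted p = 0.155).

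Few genes of the cell cycle or of glycolysis passed. Of 30 measured DNA replication genes, 0 had a larger response and 2 a smaller one (median -0.21, but 0.30 with equal hybridisation controls). Gins1, a subunit of the replicative helicase, read 5.98, 5.58 and 5.22 in WT LPS and 3.54, 2.92 and 3.17 in KO LPS, where all arrays were under the nonspecific level. Its interaction was -2.78 ± 0.40 (adjusted p = 0.00201), and KO cells read at least 2.87-fold lower. Cdt1, the origin licensing factor, passed at -1.40 ± 0.27 (adjusted p = 0.0146), but not without WT replicate 1 or 2 or KO replicate 2 or 3, nor with the mean of its probe sets (-0.71, adjusted p = 0.254). Both the mitosis list and the list of macrophage identity genes had 0 members past the threshold, of 25 and 15 measured (0 and 2 at an unadjusted p under 0.05 in limma). Pfkfb3, which makes the activator of glycolytic phosphofructokinase, read 10.20, 10.07 and 10.23 in WT LPS and 9.25, 8.44 and 8.81 in KO LPS. Its interaction was -1.32 ± 0.25 (adjusted p = 0.0127), lost without WT replicate 2 or 3 or KO replicate 3, and it was the 1 call of 23 glycolysis and hypoxia genes.

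Much of the LPS programme gave no call in the interaction. Of 25 type I interferon-stimulated genes, whose median response was 3.50 in WT and 3.75 in KO cells, 0 passed in limma and 0 had an unadjusted p under 0.05. Their values ran from -0.34 for Mx2 to 0.59 for Ifih1 and Ifit2, with a median of 0.06. Of 9 guanylate-binding proteins and IRG GTPases, which rose by a median of 4.35 and 4.56, 0 passed and 1 had an unadjusted p under 0.05. Toll-like receptors and signalling genes (0 of 18, with 4 at an unadjusted p under 0.05) had a median of 0.13. A missed threshold does not show that these responses are equal. The 6 reported KLF3 targets measured had 0 past the threshold (1 at an unadjusted p under 0.05), among them Lgals3, the galectin-3 gene, at 0.06 and Klf12 at -0.23.

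In the remaining lists few members passed. Of 15 ERK output genes 2 were higher and 0 lower: Spry1, an ERK pathway inhibitor gene (1.35 ± 0.27, adjusted p = 0.0182), and the growth factor gene Ereg (1.32 ± 0.30, adjusted p = 0.0403). Ereg lay near the nonspecific level, and its value was 0.11 with values raised to it. Of 19 alternative activation markers 3 were higher, Ccl17, Ccl22 and Egr2, and 0 lower. Icosl, the ligand of the co-stimulatory receptor ICOS, was the 1 call among 19 antigen presentation genes (0.69 ± 0.16, adjusted p = 0.0473). The mean over all Icosl probe sets gave -0.13. Calls for Spry1 were lost without WT replicate 1 or 2 or KO replicate 2 or 3, those for Ereg when any replicate but KO replicate 3 was left out, and those for Icosl whichever replicate was left out. Matrix proteases and inhibitors held Adamts4 as the 1 higher and Timp1 as the 1 lower gene of 21, and the KLF and SP family Klf10 as the 1 lower of 21.

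No member passed in limma among AP-1 and CREB/ATF factors (0 of 16, with 2 at an unadjusted p under 0.05), prostaglandin and leukotriene genes (0 of 16, with 4) or nitric oxide, arginine and itaconate genes (0 of 12, with 1). The same held for the unfolded protein response (0 of 20, with 5), scavenger and lectin receptors (0 of 18, with 6), lysosomal genes (0 of 22, with 4) and the respiratory chain (0 of 26, with 1). Over the 27 alternatives up to 3 prostaglandin and leukotriene genes were lower and up to 1 higher. Up to 4 unfolded protein response genes were higher, and up to 2 scavenger and lectin receptors higher or lower.

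**Figure D5:**
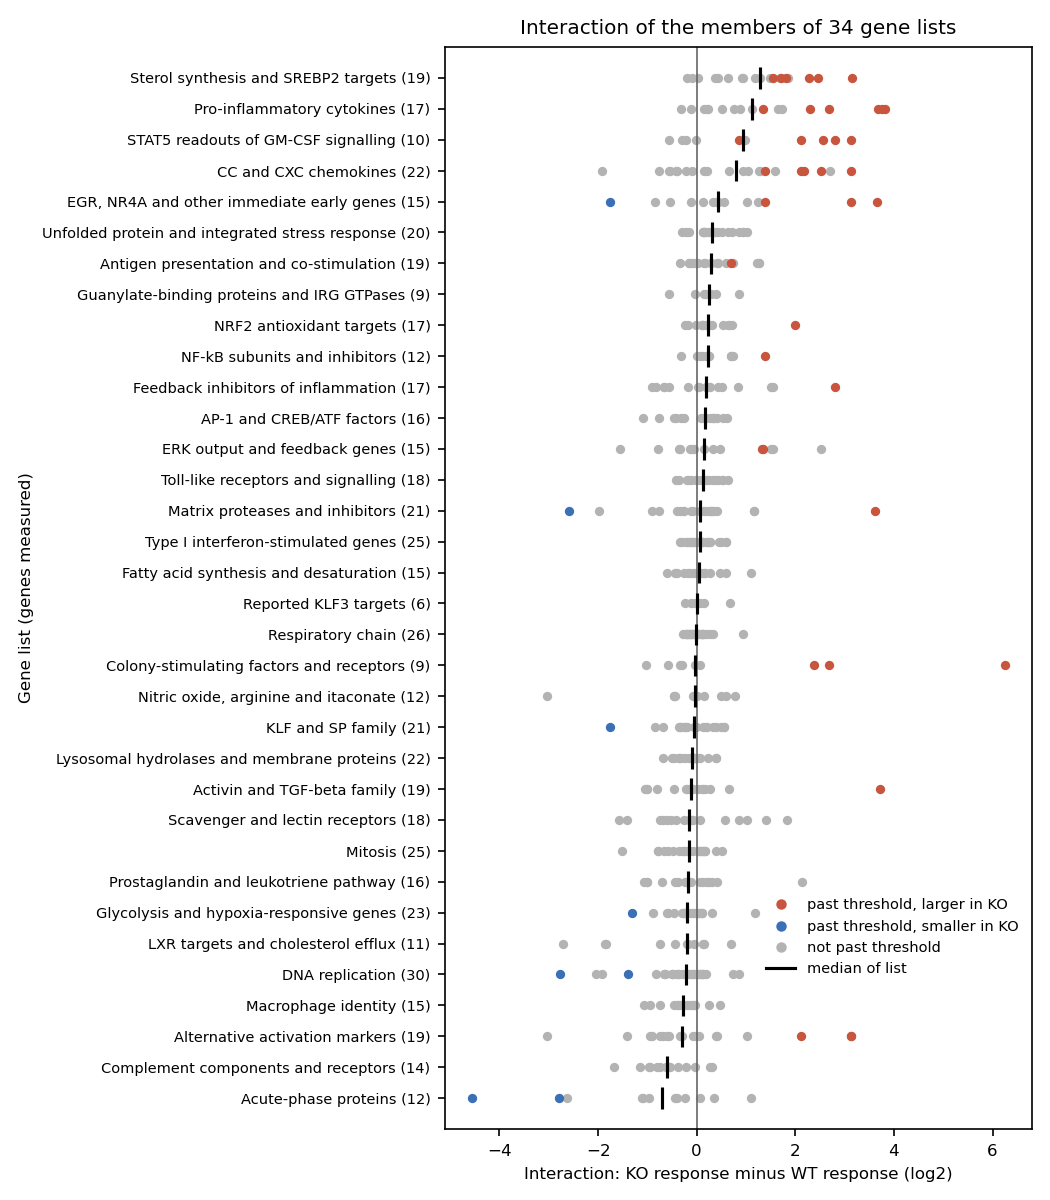
Interaction (log2, KO response minus WT response) of each measured member of 34 gene lists, 1 point per gene, red for larger and blue for smaller responses past the threshold, grey for the rest, and a black bar for the list median. Sterol synthesis (median 1.29) and pro-inflammatory cytokines (1.12) lie at the top and acute-phase proteins (-0.70) at the bottom.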

How the data were processed

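The authors deposited linear intensity values for each probe set, and per the submitters' processing notes the tool was Partek. The sources used here give neither its version nor its background correction or scaling. Arrays were the Affymetrix HT MG-430PM plate, labelled with a 3' IVT kit per the labels' protocols.

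The 45037 non-control probe sets (of 45141) were taken to log2 and quantile-normalized over 18 arrays. For each gene the probe set with 1 gene symbol and the highest mean over all arrays was used: 28898 probe sets had 1 symbol, 551 several and 15588 none, which gave 17097 genes, 16937 of them matched in RefSeq. No dim genes were removed. limma 3.58.1 (R 4.3.3) fitted 1 mean per group with empirical Bayes moderation, two-sided (12 residual degrees of freedom), checked on simulated data. The simulation gave each gene 1 spread for all groups, so it could not check the effect of the wider spread in WT LPS arrays. Errors are standard errors of this fit. The number of arrays, 3 per group, limits the precision.

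Named genes are the 20 largest positive and 15 largest negative interactions past the threshold, ranked after values were raised to the nonspecific level, up to 4 called members per list, and Klf3. The 34 lists had 585 of 652 entries matched. Other list members printed in the text, and the genes in the closing section, were chosen after their values were seen. Members, lists and tests were chosen with earlier results of these data known. The labels do not tie replicate numbers to cultures, and arrays of the same genotype and number correlated at -0.05 to 0.14 in their deviations from group means, with 2 of 18 pairs over 0.1. Leaving out a replicate leaves out all 3 arrays of that genotype and number. Position codes of the plate put each condition in rows of its own and these 2 cannot be told apart. They put each genotype and number in 1 column across conditions, and each column holds both genotypes. Promoter windows came from RefSeq (GRCm38.p6), for 13514 genes, using the first window listed.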

Additional observations from a re-analysis of the deposited data

Results flagged for a closer look

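In 14 of the 191 genes past the threshold the response passed in both genotypes with opposite signs. In 10 of them the gene rose in WT and fell in KO cells. Their interactions were -2.04 for Peak1, -2.03 for Slc16a1, -1.60 for Nek6, -1.56 for Sipa1l2 and -1.52 for Tgfbi. They were -1.42 for Pstpip1, -1.36 for Pycard, -1.28 for Irf2bpl, -1.09 for Tecpr2 and -0.88 for P2ry6. In the other 4 the gene fell in WT and rose in KO cells, with 2.26 for Intu, 1.76 for Ddhd1, 1.57 for C1qtnf4 and 1.45 for N6amt1. Pycard encodes ASC, the adaptor of inflammasomes, and Tgfbi a TGF-beta induced matrix protein. Pycard changed by 0.46 in WT and -0.90 in KO cells, and Tgfbi by 0.72 and -0.80. The call for each of the 10 genes that rose in WT cells was lost under the scaling by hybridisation controls, and with the deposited values also, except for Peak1 and Nek6. Leaving out a replicate ended the call for C1qtnf4 (any but WT replicate 2 or KO replicate 2), for Ddhd1, N6amt1 and P2ry6 (WT replicate 2, KO replicate 2 or 3), for Tecpr2 (WT replicate 2, KO replicate 1 or 2), for Pstpip1 (KO replicate 2 or 3) and for Slc16a1 (WT replicate 1 or 2, KO replicate 3). C1qtnf4 read -0.08 with values raised to the nonspecific level.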

How the results depend on the processing

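As reported, 89 genes had a larger and 102 a smaller response in KO cells. Larger counts came from an offset of 16 before log2 (154 and 171), array weights (168 and 186) and 0 h in place of vehicle (160 and 160). Filtering dim genes gave 161 lower genes. Fitting only the 12 vehicle and LPS arrays gave 37 and 40, and 21 of the 50 named calls then missed the threshold, Il6, Cyp51, Egr2 and Timp1 among them. Deposited values gave 278 and 16, equal medians 144 and 42, and equal hybridisation controls 142 and 13. Leaving out each replicate in turn gave 29 to 113 higher and 36 to 124 lower genes, fewest without KO replicate 2 and WT replicate 2. In alternatives added after seeing the data, the counts were 258 and 241 without WT LPS array 1, 73 and 72 without WT LPS array 2, with 9 named calls lost, and 157 and 216 without WT LPS array 3. Without KO vehicle array 1, 2 or 3 alone, the counts were 66 and 74, 62 and 69, and 108 and 115. The causes were not tested. With the replicate block of genotype and number the counts were 76 and 78, with 141 of these 154 calls shared with the 191; as a random effect they were 96 and 109, and with the number alone 85 and 100. The block of genotype and number ended the calls for Plk2, Timp1, Zdhhc14, Ereg, Socs2, Fdft1 and Icosl. The plate column as a block gave 77 and 86 and ended those for Cyp51, Timp1, Ereg, Fdft1 and Icosl. In the check of pairing, each array was compared only with arrays of its own genotype in the other conditions. Of 18 arrays, 12 correlated best with an array of their own number. With 3 numbers to match, a part of these matches would be expected by chance. Of 50 named calls, 20 held in all 27 alternatives and 26 whenever a replicate was left out. The reversals among genes followed were Icosl at -0.13 with the mean of all probe sets and C1qtnf4 at -0.08 with values raised to the nonspecific level. Genes under the nonspecific level in a group have only a bound there.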

Other observations

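Some genes outside the lists above bear on cytokine and growth factor signalling, and were chosen after their values were seen. Il6ra, the receptor subunit that binds IL-6, fell by 0.95 in WT and by 2.51 in KO cells (interaction -1.56 ± 0.31, limma adjusted p = 0.017). Jak3, the kinase of common gamma chain receptors, rose by 1.30 in WT cells and stood at 0.24 in KO cells (-1.06 ± 0.23, adjusted p = 0.0347). Il21r, which pairs with that chain, had an interaction of -0.97 ± 0.20 (adjusted p = 0.0221). Il20rb, a receptor subunit for IL-20 family cytokines, rose by 1.77 and 3.67 (1.90 ± 0.32, adjusted p = 0.00567), and the hepatocyte growth factor receptor gene Met by 3.97 and 5.43 (1.47 ± 0.22, adjusted p = 0.00329). Calls for Il6ra were lost without WT replicate 2 or 3 or KO replicate 1 or 2, for Il21r when any replicate but WT replicate 3 was left out, for Jak3 whichever replicate was left out, and for Il20rb without WT replicate 2 (adjusted p = 0.0511). Of the 27 alternatives, the call was lost in 1 for Met, 1 for Il20rb, 10 for Il6ra, 14 for Il21r and 15 for Jak3. The highest limma adjusted p was 0.437 for Il6ra, 0.637 for Il21r and 0.583 for Jak3.

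Regulators of transcription and the cell cycle were also among the calls. Bcl6, a repressor of inflammatory and chemokine genes in macrophages, stood at -0.11 in WT cells and fell by 1.81 in KO cells (-1.70 ± 0.27, adjusted p = 0.00438). Ahr, the aryl hydrocarbon receptor gene, stood at -0.03 in WT and rose by 1.77 in KO cells (1.79 ± 0.35, adjusted p = 0.0167). The class IIa histone deacetylase gene Hdac7 rose by 1.53 in WT cells and stood at 0.10 in KO cells (-1.42 ± 0.26, adjusted p = 0.0107). Cdkn2b, which encodes the p15 inhibitor of cyclin D kinases, rose by 2.09 and 4.80 (2.71 ± 0.57, adjusted p = 0.0279). Without WT replicate 3 or any KO replicate the call for Ahr was lost, without WT replicate 1 or 2 or KO replicate 2 or 3 that for Hdac7, and when any replicate but WT replicate 1 was left out that for Cdkn2b. The call for Bcl6 held whenever a replicate was left out and was lost in 2 of 27 alternatives. Those for Hdac7, Ahr and Cdkn2b were lost in 6, 7 and 10 of the 27 (highest limma adjusted p = 0.477, 0.143 and 0.213).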
